A study of Mus musculus with 12 samples.

Results

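The expression of 42 genes of DNA replication and S phase was followed in mouse liver and liver tumors. The members were taken from a list of symbols, not from their measured values. That list was chosen with earlier results of these data known. All 42 of the 42 were found among the 17007 genes of the deposited values and passed the filter on low values. The study sequenced RNA of 12 mice, 3 in each of 4 groups. The normal livers came from wild-type C57BL/6 mice that had not been injected. The other groups were tumors of C57BL/6J mice with both Rictor fl/fl and Tsc2 fl/fl alleles, all of which received plasmids for c-MYC, MCL1, Cre under the CMV promoter and the sleeping beauty transposase by hydrodynamic tail vein injection, so that only cells that took up plasmid lost *Rictor* and *Tsc2*. These tumor-bearing mice were given vehicle, MLN0128 (a kinase inhibitor of both mTOR complexes) or everolimus (a rapamycin analog that acts on mTORC1), each drug at 1 mg/kg per day by gavage on 6 days a week for 3 weeks, starting 6 days after injection, with sacrifice 3.7 weeks after injection. The methods give 3 weeks of treatment, whereas the study's results text gives 3 days for the sequenced tumors. The schedule above is that of the methods. Which time holds for these libraries cannot be told from the sources used here. Normal liver differed from the tumors in genotype, plasmids and injection together, and these cannot be told apart. In bulk tissue, fewer cells of a type and less RNA per cell cannot be told apart either.

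Replication starts when the origin recognition complex (ORC), with Cdc6 and Cdt1, loads the ring of Mcm2 to Mcm7 onto DNA, a step called licensing that geminin (*Gmnn*) blocks by binding Cdt1. In S phase, Mcm10, Cdc45 and the GINS complex turn the loaded ring into an active helicase, primase and DNA polymerase alpha lay down primers, and polymerases epsilon and delta copy the strands while held by the sliding clamp PCNA, which replication factor C loads. Many of these genes are transcribed by E2F factors as cells pass from G1 into S. Adult liver is largely quiescent, and hepatocytes re-enter the cell cycle after injury and in tumors.

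Levels are in FPKM as deposited by the authors, that is, fragments per kilobase of gene length after scaling for library size. The length that recovered whole reads was that of all annotated exons of a gene. A gene with annotated exons outside its expressed transcript therefore reads too low beside others, and comparisons between genes are approximate. Tests were run with limma on log2(FPKM + 1) over all 14397 genes that passed the filter, with the 12 libraries in 1 model. Fold changes are on that scale, which understates the change of genes near 0 FPKM. A gene was called by the moderated test at a Benjamini-Hochberg adjusted p under 0.05 over all tested genes, and more strictly by treat, limma's test for a change beyond 1.5-fold. Unless treat is named, adjusted p values below are from the moderated test. Libraries held 17165185 to 25181422 reads recovered from the FPKM. MLN0128 replicates 1 and 2 held *Xist* RNA at 191 and 155 FPKM and were at 0 for 4 Y-linked genes, whereas *Xist* was 0.00885 to 0.0699 FPKM in the other 10 libraries and the Y-linked genes were detected there. Comparisons with MLN0128 are therefore also partly comparisons of sexes. *Tsc2* was 5.21, 5.32 and 4.5 FPKM in normal liver and 2.24, 2.01 and 2.31 in vehicle tumors, against 3.96, 2.81 and 3.4 with MLN0128 and 2.78, 2.82 and 2.87 with everolimus. It was lower in vehicle tumors than in normal liver (log2 fold change -0.91, adjusted p = 2.45e-05) and higher with MLN0128 than with vehicle (0.46, adjusted p = 0.0114). *Rictor* was 1.99, 1.65 and 2.57 FPKM in normal liver, 1.19, 1.5 and 1.05 in vehicle tumors (log2 fold change -0.44, adjusted p = 0.0115), 2.21, 1.65 and 1.82 with MLN0128, in the range of normal liver, and 1.58, 1.93 and 1.62 with everolimus. Both were counted over whole genes and not over the deleted exons, so these levels do not check the deletion.

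**Figure D1:**
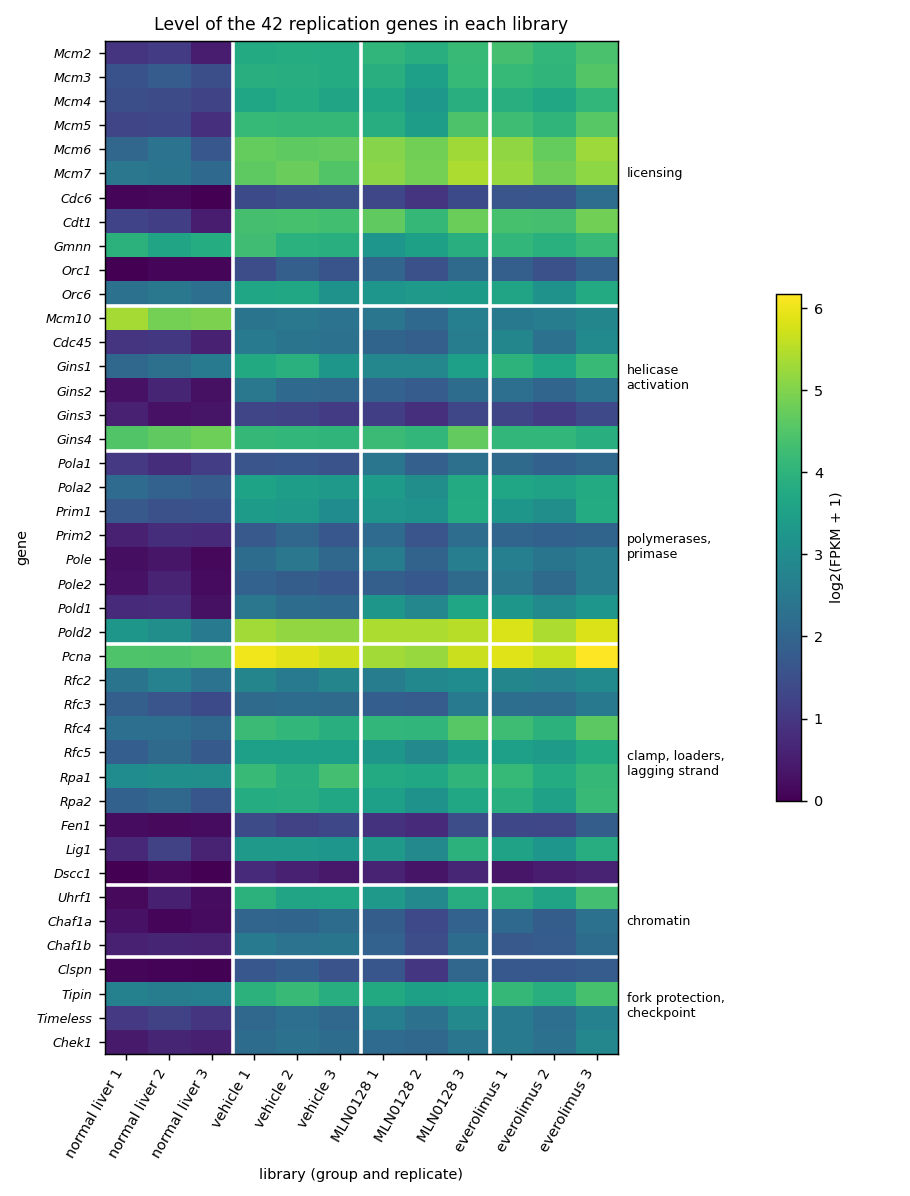
Each row is 1 of the 42 genes, grouped by role, each column 1 library, and the colour is log2(FPKM + 1). The normal liver columns are darkest for nearly all rows, with *Mcm10* and *Gins4* as bright rows there, and the 9 tumor columns are brighter for most rows.

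The first question was how far the tumors differed from normal liver. In vehicle tumors 38 of the 42 genes were higher than in normal liver and 2 were lower by the moderated test, while 2, *Gmnn* and *Rfc2*, did not pass. Over all tested genes the same test called 36% higher and 33% lower. That split depended on the scaling: with plain library totals it was 61.3% and 15.2%, where 40 members were higher and 1 lower, and with TPM, the FPKM rescaled to a common sum, 67% and 11.7%, where 41 were higher and 1 lower. By treat 34 members were higher and 1, *Mcm10*, was lower, where 15.9% and 16.9% of all tested genes were called. The median log2 fold change was 1.58 over the members and 0.0584 over all tested genes. In each normal liver 16 to 21 of the members lay under 1 FPKM, against 1 in each vehicle tumor.

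**Figure D2:**
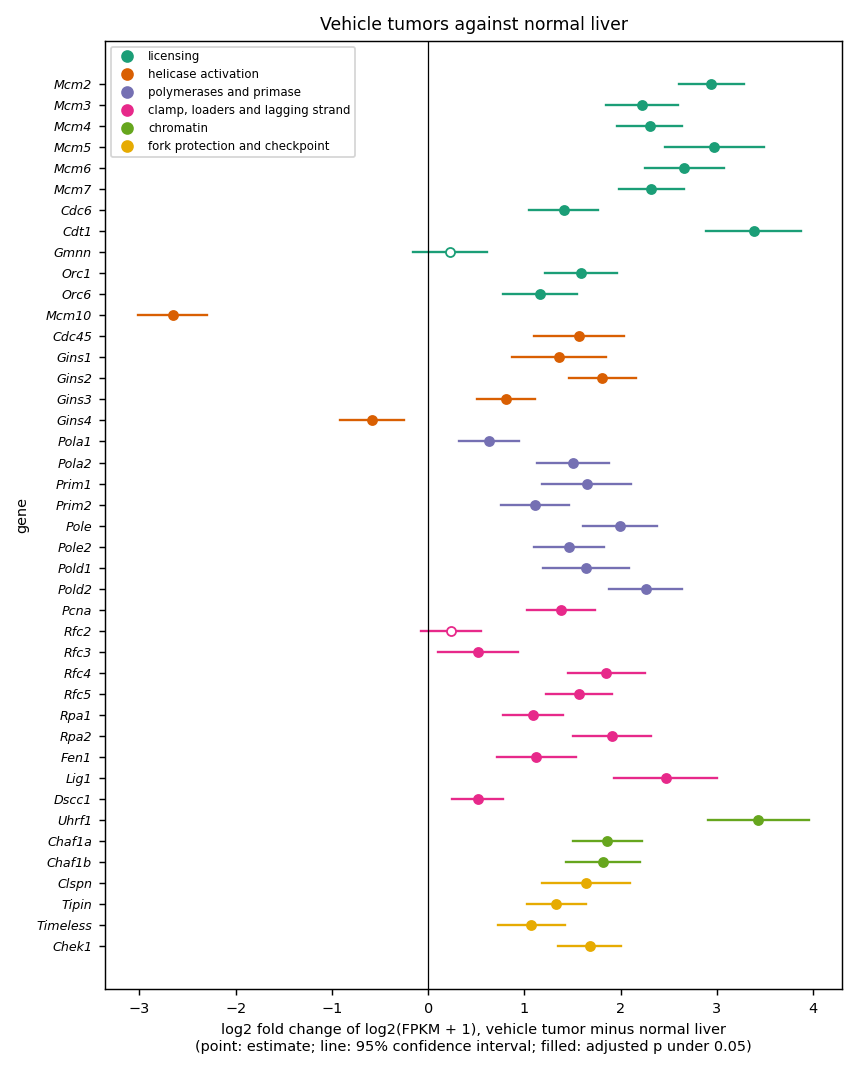
The log2 fold change of log2(FPKM + 1) between vehicle tumors and normal liver is drawn for each of the 42 genes, coloured by role, with its 95% confidence interval; filled points have an adjusted p under 0.05. Points lie to the right of 0 except *Mcm10* (-2.66) and *Gins4* (-0.58), and *Uhrf1* (3.43) and *Cdt1* (3.38) lie farthest to the right.

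Among the 11 licensing genes, 10 rose and the exception was the inhibitor *Gmnn*. *Cdt1*, the loader that geminin binds, read 1.36, 1.21 and 0.397 FPKM across the 3 normal livers and 19.4, 19.6 and 18.6 across the 3 vehicle tumors, and the groups lay far apart (log2 fold change 3.38, SE 0.23, adjusted p = 1.84e-07). *Gmnn* itself stood at 14.7, 11.1 and 13.1 FPKM in normal liver and 18.4, 14.3 and 13.5 in vehicle tumors. Its groups overlapped and it did not pass (log2 fold change 0.23, SE 0.17, adjusted p = 0.263). The ratio of *Cdt1* to *Gmnn* FPKM, which was chosen after the values were seen, was 0.0925, 0.109 and 0.0303 in normal liver and 1.05, 1.37 and 1.38 in vehicle tumors (exact two-sided permutation test of the log2 ratio, p = 0.1, the smallest that 3 against 3 libraries allow).

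The 6 subunits of the Mcm2 to Mcm7 ring rose together. The smallest of their linear ratios of mean FPKM was 5.99 (*Mcm7*) and the largest 15.5 (*Mcm2*). *Mcm2* stood at 0.947, 1.15 and 0.4 FPKM in normal liver and 12.7, 13.1 and 12.8 in vehicle tumors (log2 fold change 2.94, SE 0.15, adjusted p = 3.41e-08). *Mcm7* was at 4.44, 4.16 and 3.31 and 24, 25.9 and 21.4 (log2 fold change 2.32, SE 0.16, adjusted p = 2e-07). The subunits did not stand at 1 level per length of annotated exons: in vehicle tumors the means ran from 11.97 FPKM (*Mcm4*) to 24.7 (*Mcm6*), with *Mcm7* next to *Mcm6* at 23.8. Summed over the 6 subunits, the level was 13.7, 15.1 and 9.84 FPKM in normal liver and 104, 106 and 99 in vehicle tumors. The origin recognition subunit *Orc1* and the loader *Cdc6* were close to absent from normal liver. *Cdc6* stood at 0.0532, 0.104 and 0 FPKM there, which stood for 3, 6 and 0 reads, and at 1.62, 1.85 and 1.9 in vehicle tumors (182, 204 and 231 reads; log2 fold change 1.41, SE 0.16, adjusted p = 1.24e-05). *Orc1* had 0, 3 and 2 reads in normal liver and 132, 195 and 166 in vehicle tumors. With so few reads in normal liver, no ratio is given for these genes.

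The helicase activation genes split. *Gins2*, a GINS subunit, stood at 0.226, 0.553 and 0.211 FPKM in normal liver and 4.57, 3.33 and 3.12 in vehicle tumors (log2 fold change 1.81, SE 0.16, adjusted p = 1.53e-06), and *Gins1*, *Gins3* and *Cdc45* also rose. The fourth GINS subunit, *Gins4*, went the other way, from 21.6, 24.3 and 27.1 FPKM to 16.2, 15.9 and 15.4 (log2 fold change -0.58, SE 0.15, adjusted p = 0.00447), without overlap of the groups. Its fall depended on how the libraries were scaled. With TPM its log2 fold change turned to 0.57 (adjusted p = 0.0316), and with plain library totals to 0.30 (adjusted p = 0.147). In all 12 libraries *Gins4* was the most abundant of the 4 GINS genes per length except everolimus replicate 3, where *Gins1* stood at 17.3 FPKM and *Gins4* at 13.8. *Gins2* shares 2758 exon bases with *Gse1* on the other strand, and whether the counting used strand is not given in the sources used here.

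*Mcm10*, which helps to activate the loaded helicase and recruits polymerase alpha, showed the largest fall of any member. Its level was 39.4, 28.4 and 30 FPKM across the 3 normal livers, against 4.2, 4.55 and 4.09 in the vehicle tumors, a linear ratio of means of 0.131 (log2 fold change -2.66, SE 0.16, treat adjusted p = 7.52e-07). The signal stood for 3268, 2409 and 2408 reads in the normal livers, so low depth does not limit it. The fall kept its direction and passed under each of the 23 alternatives, with log2 fold changes from -2.92 to -1.64. In normal liver *Mcm10* was the highest member, above *Gins4* and *Pcna*. In the drug groups it was at 4.38, 3.3 and 5.31 FPKM with MLN0128 and 4.6, 5.05 and 6.12 with everolimus, all far under the normal livers. *Mcm10* lies on chr2:4989714-5012791, minus strand, and no exon of another gene overlaps its own in the GENCODE M21 annotation of GRCm38. *Gins4* lies on chr8:23226616-23237659, minus strand, and shares no exon bases either.

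All 8 genes of the polymerases and primase rose. *Pold2*, the second subunit of polymerase delta, stood at 8.61, 7.27 and 4.9 FPKM in normal liver and 39.1, 35.2 and 34.4 in vehicle tumors (log2 fold change 2.26, SE 0.17, adjusted p = 5.09e-07). The catalytic subunit *Pold1* was at 0.668, 0.728 and 0.217 and 4.45, 3.55 and 3.28 (log2 fold change 1.64, SE 0.20, adjusted p = 2.01e-05), which left it far under *Pold2* in every library. The smallest rise of this role was that of *Pola1*, the catalytic subunit of polymerase alpha, from 1.05, 0.761 and 1.19 FPKM to 2.11, 2.18 and 1.97 (log2 fold change 0.63, SE 0.14, adjusted p = 0.0019), which did not pass treat (adjusted p = 0.742). *Pole2*, a polymerase epsilon subunit, rose from 0.225, 0.504 and 0.133 FPKM to 2.85, 2.54 and 2.21 (log2 fold change 1.46, SE 0.17, adjusted p = 1.03e-05). The remaining genes, *Pola2*, *Prim1*, *Prim2* and *Pole*, had log2 fold changes from 1.11 to 1.99.

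Of the 10 genes of the clamp, its loaders and the lagging strand, 9 rose. *Fen1*, the nuclease that trims Okazaki fragments, stood at 0.153, 0.112 and 0.158 FPKM in normal liver (4, 3 and 4 reads) and 1.66, 1.29 and 1.52 in vehicle tumors (log2 fold change 1.12, SE 0.19, adjusted p = 0.000209), with 2039 of its 2422 exon bases shared with *Gm10143* and *Tmem258* on the other strand. *Lig1*, the ligase that joins Okazaki fragments, stood at 0.63, 1.27 and 0.539 FPKM in normal liver and 9.16, 9 and 8.49 in vehicle tumors (log2 fold change 2.47, SE 0.24, adjusted p = 3.58e-06). *Pcna* was the most abundant member in 7 of the 9 tumor libraries (*Pold2* in MLN0128 replicates 1 and 2) and already stood at 21.2, 21 and 22.5 FPKM in normal liver, against 65, 58.4 and 50.8 in vehicle tumors (log2 fold change 1.38, SE 0.16, adjusted p = 1.3e-05). The clamp loader subunits did not rise alike: *Rfc4* and *Rfc5* had log2 fold changes of 1.85 and 1.57, *Rfc3* 0.52, and *Rfc2* did not pass. *Rfc2* stood at 4.22, 5.61 and 4.12 FPKM in normal liver and 6.01, 4.9 and 6 in vehicle tumors, with overlapping groups (log2 fold change 0.24, SE 0.14, adjusted p = 0.157), and it shares 952 exon bases with *Lat2* on the other strand. *Gmnn* and *Rfc2* both passed as higher once the libraries were scaled by plain totals (log2 fold changes 1.08 and 0.98) or to TPM (1.39 and 1.34). *Rpa1*, the large subunit of the single-strand binding protein, rose from 7.07, 7.38 and 7.22 FPKM to 16.9, 13.9 and 19 (log2 fold change 1.09, SE 0.14, adjusted p = 3.38e-05). *Dscc1*, of the cohesion-linked clamp loader, was the lowest member in each of the 9 tumor libraries, and stood at 0, 0.123 and 0 FPKM in normal liver (0, 6 and 0 reads) and 0.664, 0.482 and 0.33 in vehicle tumors (log2 fold change 0.52, SE 0.12, adjusted p = 0.00263).

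The 3 chromatin genes rose as well. *Uhrf1*, which keeps DNA methylation through replication, had the largest fold change of all members, from 0.109, 0.447 and 0.158 FPKM in normal liver (5, 21 and 7 reads) to 14.5, 11.2 and 11.3 in vehicle tumors (1323, 1006 and 1121 reads; log2 fold change 3.43, SE 0.24, adjusted p = 2.72e-07). *Chaf1b*, a subunit of the chromatin assembly factor CAF-1, rose from 0.475, 0.562 and 0.512 FPKM to 4.7, 4.13 and 4.25 (log2 fold change 1.82, SE 0.18, adjusted p = 2.89e-06). Its partner *Chaf1a* had a log2 fold change of 1.86, with 4648 exon bases shared with *Ubxn6* on the other strand. All 4 fork protection and checkpoint genes rose. *Chek1*, the kinase of the replication checkpoint, rose from 0.36, 0.567 and 0.455 FPKM to 3.57, 3.92 and 3.51 (log2 fold change 1.68, SE 0.15, adjusted p = 1.52e-06). *Clspn*, which encodes claspin, the adaptor through which Chek1 is activated, rose from 0.0645, 0.0505 and 0.0267 FPKM (5, 4 and 2 reads) to 2.21, 2.58 and 2.01 (log2 fold change 1.64, SE 0.21, adjusted p = 2.58e-05). *Timeless* rose from 1.05, 1.29 and 0.94 FPKM to 3.21, 3.77 and 3.2 (log2 fold change 1.07, SE 0.16, adjusted p = 9.4e-05). Its binding partner, *Tipin*, stood higher in both groups, at 5.56, 5.09 and 5.38 FPKM and 14.7, 17 and 13.3 (log2 fold change 1.33, SE 0.14, adjusted p = 5.74e-06). The order of these 4 genes depended on the scale. On log2(FPKM + 1) *Chek1* rose the most and *Timeless* the least. By the ratio of mean FPKM *Clspn* rose the most (47.99, against 7.96 for *Chek1*) and *Tipin* the least (2.81, against 3.10 for *Timeless*). The *Clspn* ratio rests on 5, 4 and 2 reads in normal liver, so its size is uncertain. The plot of log2 fold changes between tumors and normal liver shows that genes of 1 role were spread over a wide range, most of all in helicase activation.

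Since most members moved together, the letters of their promoters were read. RefSeq promoters on GRCm38.p6 (250 bases before to 50 after each start) matched 32 of the 42 genes with 38 promoters. The E2F-type words TTTCCCGC, TTTGGCGC, TTTCGCGC and TTTGCCGC were searched on both strands. At least 1 was found in 15 of the 38 promoters, each of a different gene (39.5%), and in 2.26% of all 32851 promoters of that length. CCAAT, on either strand, was found in 22 of the 38 (57.9%) and in 37.4% of all promoters, and the E-box CACGTG in 5 (13.2%) and in 7.15%. These counts describe letters and not bound sites. The 200 bases before the start are shown for *Mcm6*, *Orc1*, *Cdc6*, *Gins3*, *Uhrf1* and *Pola1*, which hold an E2F-type word in that stretch and rose in tumors, and for *Mcm10*, which fell and holds none in its promoter. This choice does not tie the word to the direction of change. Only 15 of the 32 matched genes hold the word, and *Mcm2*, *Pcna*, *Pold2* and *Cdc45* are among those that rose without it. Capitals mark E2F-type words and CCAAT on either strand, and in *Mcm6* the first word and the next, on the other strand, overlap.

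These stretches are given 5′ to 3′ along the gene's own strand, from chr1:128359706-128359905 (minus strand), chr4:108579254-108579453 (plus), chr11:98907951-98908150 (plus), chr8:95633359-95633558 (plus), chr17:56304113-56304312 (plus), chrX:93632156-93632355 (minus) and chr2:5012792-5012991 (minus).
Mcm6: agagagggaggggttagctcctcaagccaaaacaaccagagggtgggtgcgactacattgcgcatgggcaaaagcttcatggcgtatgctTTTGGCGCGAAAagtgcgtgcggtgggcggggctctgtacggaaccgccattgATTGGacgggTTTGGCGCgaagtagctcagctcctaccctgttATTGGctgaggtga
Orc1: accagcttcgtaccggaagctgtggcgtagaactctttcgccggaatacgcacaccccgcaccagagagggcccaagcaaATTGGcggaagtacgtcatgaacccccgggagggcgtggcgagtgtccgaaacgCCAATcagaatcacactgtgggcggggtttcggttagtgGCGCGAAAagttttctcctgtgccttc
Cdc6: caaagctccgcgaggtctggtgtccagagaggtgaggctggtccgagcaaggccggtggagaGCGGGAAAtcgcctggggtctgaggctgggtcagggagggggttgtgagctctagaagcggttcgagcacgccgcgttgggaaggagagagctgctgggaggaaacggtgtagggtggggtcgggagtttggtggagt
Gins3: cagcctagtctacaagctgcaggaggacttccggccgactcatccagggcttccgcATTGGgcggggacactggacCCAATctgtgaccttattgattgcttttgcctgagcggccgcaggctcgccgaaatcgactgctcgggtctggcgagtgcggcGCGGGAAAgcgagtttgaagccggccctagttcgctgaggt
Uhrf1: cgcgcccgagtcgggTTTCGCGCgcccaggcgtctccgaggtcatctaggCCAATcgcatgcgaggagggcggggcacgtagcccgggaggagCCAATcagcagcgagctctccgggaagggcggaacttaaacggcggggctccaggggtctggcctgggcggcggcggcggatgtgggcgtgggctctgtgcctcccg
Pola1: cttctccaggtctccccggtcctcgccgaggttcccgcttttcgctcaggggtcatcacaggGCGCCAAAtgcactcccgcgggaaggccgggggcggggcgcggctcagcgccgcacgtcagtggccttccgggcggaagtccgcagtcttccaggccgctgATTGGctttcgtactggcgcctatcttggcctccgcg
Mcm10: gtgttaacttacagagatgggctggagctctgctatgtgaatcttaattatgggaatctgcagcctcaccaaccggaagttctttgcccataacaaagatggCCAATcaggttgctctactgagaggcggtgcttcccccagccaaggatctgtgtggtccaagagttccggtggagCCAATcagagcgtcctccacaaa

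*Mcm6* holds 2 copies of TTTGGCGC, 110 and 47 bases before its start, and *Orc1* a reverse-strand word 27 bases before it. The word in *Gins3* is 41 bases before the start, those of *Cdc6* and *Pola1* are 138 bases before it, and that of *Uhrf1* is 185 bases before the start of the promoter shown. *Uhrf1* has 2 promoters. The one with the word was chosen for display, and the other holds CCAAT but no E2F-type word. The *Mcm10* stretch holds CCAAT 98 and 23 bases before the start. *Mcm5*, *Mcm7* and *Rfc3* hold upstream words too, the last 10 bases before its start, and *Cdt1*, *Lig1*, *Pold1*, *Pole2*, *Clspn* and *Mcm3* hold theirs in the 50 bases after the start.

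Other genes of the pathway moved in the same direction. Of 56 further genes of replication, nucleotide supply and S-phase entry, 45 were higher and 2 lower in vehicle tumors (median log2 fold change 1.12). The ribonucleotide reductase subunit *Rrm2* stood at 1, 2.85 and 1.45 FPKM in normal liver and 59.9, 57.2 and 55 in vehicle tumors (log2 fold change 4.45, adjusted p = 2.26e-07). The lower ones were the thymidine kinase *Tk1* (-0.87) and the ribonuclease H2 subunit *Rnaseh2c* (-0.77). Of the proliferation markers, *Mki67* rose from 0.166, 1.01 and 0.267 FPKM to 14.3, 12.5 and 11.9 (adjusted p = 3.93e-06). Macrophage and endothelial markers fell for the most part at the same time. The summed level of 7 macrophage markers was 217 to 260 FPKM in normal liver and 60.1 to 95.6 in vehicle tumors. By the moderated test 5 of them were lower, but 1, *Cd68*, was higher (5.75, 4.98 and 4.8 FPKM against 24.6, 28.2 and 36.8). The summed level of 5 endothelial markers was 44.3 to 51.9 and 8.76 to 13.0, with 3 of them lower and 0 higher. The summed level of 8 hepatocyte markers was 84137 to 104148 FPKM in normal liver and 4329 to 6585 in vehicle tumors, with none at 0 in a whole group. The part of these cells in the results was not tested.

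The next question was whether MLN0128 changed these genes in tumors. Of the 42, 4 were higher with MLN0128 than with vehicle by the moderated test (*Pold1*, *Pola1*, *Mcm7* and *Timeless*) and 2 were lower (*Chaf1b* and *Pcna*), while 36 did not pass. The test called 14.9% of all tested genes higher and 17.1% lower, against 9.52% and 4.76% of the members. With plain library totals the shares of all genes were 23.1% and 12.7%, and with TPM 24.6% and 8.81%, each with 5 members higher and 0 lower. By treat 0 members were called in either direction, against 0.479% higher and 1.65% lower over all tested genes. At an unadjusted p under 0.05, 4 members were higher and 5 lower, against 2966 and 3215 of the 14397 tested genes. With limma's voom on the recovered reads 4 members were higher and 3 lower, against 15.7% and 18% of all tested genes. The median log2 fold change was -0.04 over the members and -0.00872 over all tested genes.

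**Figure D3:**
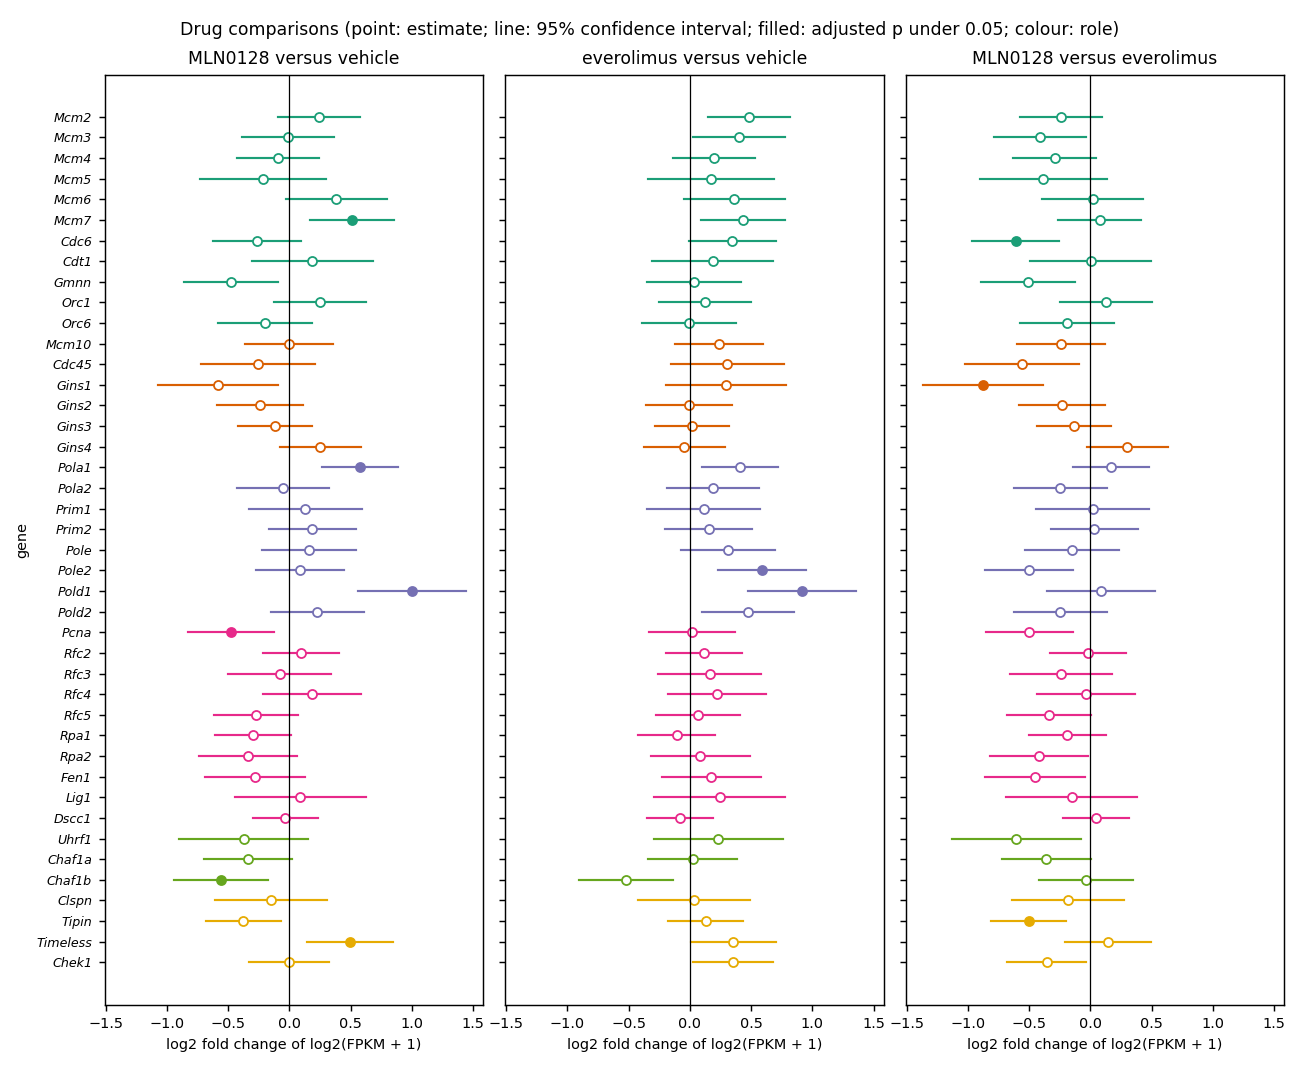
The log2 fold change of log2(FPKM + 1) is drawn for each of the 42 genes in the 3 drug comparisons, with its 95% confidence interval and coloured by role; filled points have an adjusted p under 0.05. Most intervals cross 0, *Pold1* stands farthest to the right against vehicle with either drug (1.00 and 0.92), and most points in the MLN0128 versus everolimus panel lie left of 0.

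The 4 members higher with MLN0128 were 2 of the 8 polymerase and primase genes, 1 of the 11 licensing genes and 1 of the 4 fork protection and checkpoint genes. *Pold1* was at 4.45, 3.55 and 3.28 FPKM with vehicle and 8.64, 6.19 and 11.3 with MLN0128, a linear ratio of means of 2.32 (log2 fold change 1.00, SE 0.20, adjusted p = 0.00354). *Pola1* was at 2.11, 2.18 and 1.97 FPKM with vehicle and 4.33, 2.74 and 3.88 with MLN0128 (log2 fold change 0.58, SE 0.14, adjusted p = 0.0101). For both genes each MLN0128 library lay above each vehicle library, and both passed in each of the 24 alternatives. *Pola1* is on the X chromosome (chrX:93304767-93632155, minus strand). Its level in MLN0128 replicate 3, where *Xist* was at 0.0699 FPKM and Y-linked RNA was detected, was 3.88 FPKM, and with that library alone in the MLN0128 arm, assumed to vary like the other groups, the log2 fold change was 0.66 (adjusted p = 0.0332). *Mcm7* was at 24, 25.9 and 21.4 FPKM with vehicle and 33.3, 28.7 and 41.7 with MLN0128 (log2 fold change 0.51, SE 0.16, adjusted p = 0.0277). *Timeless* was at 3.21, 3.77 and 3.2 FPKM with vehicle and 5.36, 4.03 and 6.43 with MLN0128 (log2 fold change 0.50, SE 0.16, adjusted p = 0.0335). *Mcm7* and *Timeless* no longer passed without vehicle replicate 1 or 3, or MLN0128 replicate 1 or 3 (adjusted p 0.0648 to 0.105). *Pola1* rose while its partners *Pola2* (-0.05), *Prim1* (0.13) and *Prim2* (0.19) did not pass. Of the other subunits of the ring, *Mcm2* (0.24), *Mcm3* (-0.01), *Mcm4* (-0.09), *Mcm5* (-0.21) and *Mcm6* (0.38) did not pass (adjusted p 0.143 to 0.969).

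*Pcna* was at 65, 58.4 and 50.8 FPKM with vehicle and 38.6, 36 and 50.3 with MLN0128 (log2 fold change -0.48, SE 0.16, adjusted p = 0.0409). The groups did not overlap, but the lowest vehicle library and the highest MLN0128 library were 50.8 and 50.3 FPKM. *Chaf1b* was at 4.7, 4.13 and 4.25 FPKM with vehicle and 2.87, 1.73 and 3.53 with MLN0128 (log2 fold change -0.56, SE 0.18, adjusted p = 0.03). *Gins1*, the lowest log2 fold change of the comparison, was at 12.4, 14.2 and 8.61 FPKM with vehicle and 6.29, 6.22 and 10.1 with MLN0128, overlapped, and did not pass (log2 fold change -0.58, SE 0.22, adjusted p = 0.0669). *Gmnn* was at 8.53, 10.3 and 13.8 FPKM with MLN0128, against 18.4, 14.3 and 13.5 with vehicle (log2 fold change -0.48, SE 0.17, adjusted p = 0.0555). The ratio of *Cdt1* to *Gmnn* was 2.86, 1.58 and 1.93 with MLN0128 and so above the 3 vehicle tumors in each library (exact two-sided permutation test, p = 0.1, the smallest possible). The number of members lower with MLN0128 rested on single libraries. It was 0 without vehicle replicate 1 or 2 or MLN0128 replicate 1 or 2 (11.8% to 15.7% of all tested genes). Without any of the normal livers or without everolimus replicate 1 it was 1 (16% to 17%). Without MLN0128 replicate 3 it was 5 (17.1%). It was also 0 with MLN0128 replicate 3 as the only MLN0128 library, where 5 members were higher. With plain library totals it was 0 and 5 were higher. The number higher fell to 2 without vehicle replicate 1 or 3 or MLN0128 replicate 1 or 3 (9.18% to 15.9% of all tested genes).

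**Figure D4:**
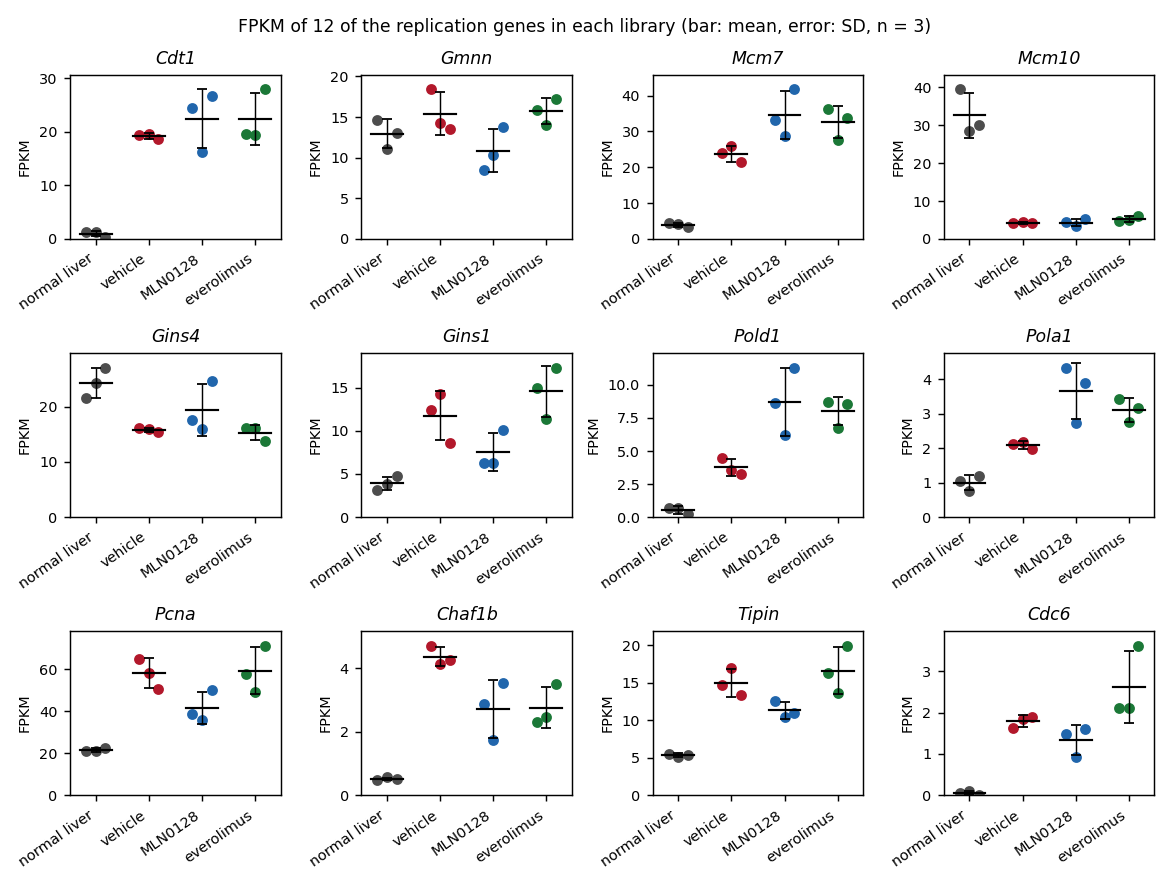
FPKM of 12 of the 42 genes are plotted for each library by group, with the mean as a bar and the SD as error (n = 3). *Pold1* and *Pola1* stand above the vehicle tumors with both drugs, *Mcm10* is high in the 3 normal livers alone, and the MLN0128 points of most genes are widely spread.

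The spread between the 3 MLN0128 tumors was systematic over the members. MLN0128 replicate 3 was the highest of its group for 40 of the 42 genes and replicate 2 the lowest for 38, against 31.4% and 34% of all tested genes. The mean of log2(FPKM + 1) over the 42 genes was 2.99, 2.73 and 3.28 in the MLN0128 libraries, 3.08, 3.06 and 2.94 in the vehicle libraries and 3.22, 3.02 and 3.42 in the everolimus libraries, and 1.55, 1.60 and 1.41 in normal liver. Thus MLN0128 replicates 2 and 3 lay below and above all 3 vehicle tumors. *Mki67* had the same order, at 10.6, 6.57 and 21.6 FPKM with MLN0128 against 14.3, 12.5 and 11.9 with vehicle. So had the summed Mcm2 to Mcm7 level, at 119, 99.1 and 148 FPKM. Everolimus replicate 3 was the highest of its group for 35 genes and replicate 2 the lowest for 37, against 32.2% and 44.6% of all tested genes. Vehicle replicate 3 was the lowest of its group for 31, against 30.9% of all tested genes. The factor by which the authors' FPKM were scaled beyond total reads was 1.26, 1.16 and 1.37 in the MLN0128 libraries, and multiplying it back in would raise replicate 3 the most. MLN0128 replicate 3 was also the library of its group with *Xist* near 0 FPKM and with Y-linked RNA. Whether sex, the tumor or the scaling set this order was not tested.

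**Figure D5:**
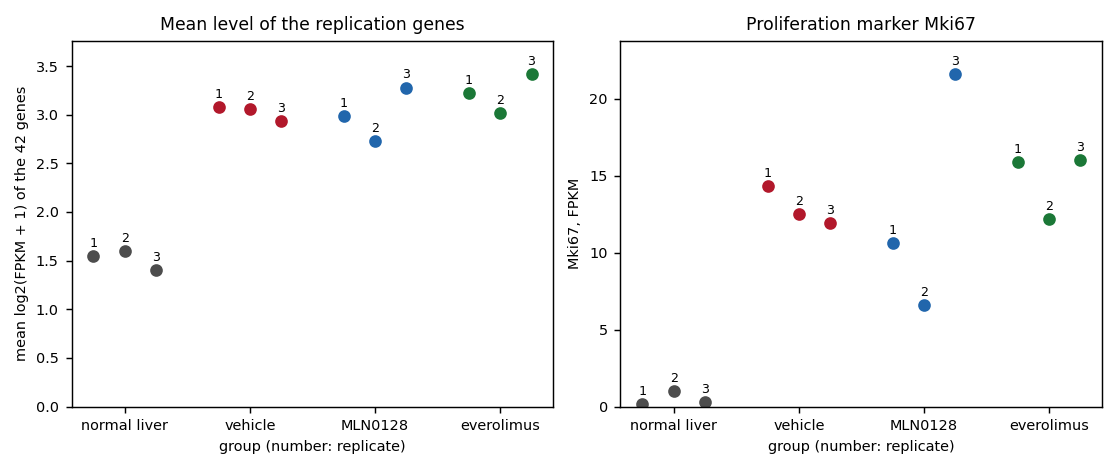
The left panel gives the mean of log2(FPKM + 1) over the 42 genes in each library and the right panel the FPKM of *Mki67*, with the replicate number above each point. In both panels MLN0128 replicate 3 is above and MLN0128 replicate 2 below the 3 vehicle tumors, and the normal livers are lowest.

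Of the 56 further genes, 5 (8.93%) were higher with MLN0128 and 10 (17.9%) lower by the moderated test, against 14.9% and 17.1% of all tested genes, so the share lower was near that of all genes. By treat 1, *E2f2*, was lower. *E2f2*, an activating E2F factor, was at 3.63, 3.1 and 3.08 FPKM with vehicle and 0.563, 0.519 and 0.745 with MLN0128 (log2 fold change -1.41, treat adjusted p = 0.00904). *Ccne1*, a cyclin that drives entry into S phase, was at 25.5, 31 and 27.9 FPKM with vehicle and 6.92, 7.53 and 13.6 with MLN0128 (log2 fold change -1.54, SE 0.27, adjusted p = 0.00178). *E2f1* (-0.77), *Ccne2* (-0.62), *Dbf4*, the activator of the Cdc7 kinase (-0.77), and the histone chaperone *Asf1b* (-1.01) were lower too (adjusted p 0.00569 to 0.0229). The higher ones included the origin recognition subunits *Orc3* (0.66) and *Orc5* (0.43), whereas *Orc2* was lower (-0.60). Marker genes moved with the drug as well. Of the 4 biliary genes tested 3 were lower, among them *Krt19* (29.6, 9.49 and 44 FPKM with vehicle, 0.493, 0.152 and 0.834 with MLN0128, log2 fold change -4.05, adjusted p = 0.000114), and the summed level of the 5 listed was 36.8 to 92.5 FPKM with vehicle and 10.3 to 28.1 with MLN0128. Of 3 oncofetal genes 2 were lower, *Afp* (1950, 1350 and 1520 against 145, 210 and 159 FPKM, -3.22) and *Gpc3* (-2.02), both also by treat (adjusted p 0.000183 and 0.0196). The summed level of 7 macrophage genes was 24.9 to 36.1 FPKM with MLN0128, and 2 of them were lower. Of 5 erythroid precursor genes 1 was lower, *Tfrc*, the widely expressed transferrin receptor, which made up most of their sum (111, 122 and 99.2 FPKM with vehicle, 41.8, 35.5 and 27 with MLN0128). Of 8 hepatocyte genes 2 were higher and 3 lower. Their part in the results was not tested.

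Everolimus was compared with vehicle in the same way, with the same 3 vehicle libraries. By the moderated test 2 members, *Pold1* and *Pole2*, were higher and 0 were lower, against 3.78% and 6.05% of all tested genes. By treat 0 were called, against 0.0347% higher and 0.57% lower over all tested genes. At an unadjusted p under 0.05, 9 were higher and 1, *Chaf1b*, lower, against 1920 and 1945 of the 14397 tested genes. With voom 2 members were higher and 0 lower, against 5.03% and 6.75% of all tested genes. Positive log2 fold changes were found for 36 of the 42 members and for 54.7% of all tested genes, with medians of 0.18 and 0.0344.

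*Pold1* was at 8.69, 6.77 and 8.52 FPKM with everolimus, above all 3 vehicle tumors (log2 fold change 0.92, SE 0.20, adjusted p = 0.017), and no longer passed without vehicle replicate 3 or without everolimus replicate 1 or 3 (adjusted p 0.0558 to 0.0760). *Pole2* was at 2.85, 2.54 and 2.21 FPKM with vehicle and 4.52, 3.37 and 5.18 with everolimus (log2 fold change 0.59, SE 0.17, adjusted p = 0.0454), and its call was lost in 16 of 23 alternatives. *Mcm2* was at 19.3, 16.1 and 20 FPKM with everolimus, also above each vehicle tumor, and just missed (log2 fold change 0.48, SE 0.15, adjusted p = 0.068). *Chaf1b* was at 2.31, 2.47 and 3.5 FPKM with everolimus, below each vehicle tumor (log2 fold change -0.52, SE 0.18, adjusted p = 0.0794), and passed without MLN0128 replicate 2 (adjusted p = 0.0314), the 1 case of a lower member. The other low ends were *Rpa1*, at 16.6, 12.9 and 16.4 FPKM (-0.11, 95% confidence interval -0.42 to 0.20), and *Dscc1*, at 0.299, 0.403 and 0.526 FPKM (-0.08, -0.35 to 0.19). *Pcna*, at 57.6, 49.1 and 71.1 FPKM with everolimus, had 0.02 (-0.33 to 0.37). The number higher was 0 without vehicle replicate 3 or without everolimus replicate 1 or 3 (0.952% to 1.94% of all tested genes). It was 1 without normal liver replicate 1, vehicle replicate 1 or 2 or MLN0128 replicate 1 (1.42% to 3.22%). Among the 56 further genes 3 (5.36%) were higher and 3 (5.36%) lower, near the shares of all tested genes. Of the marker genes, the same 3 biliary genes as with MLN0128 were lower, *Krt19* (0.257, 0.944 and 0.325 FPKM, log2 fold change -4.04), *Epcam* (-1.66) and *Sox9* (-1.02). *Afp* was at 247, 232 and 466 FPKM with everolimus (-2.40, adjusted p = 0.000245), while *Gpc3* did not pass (-0.66, adjusted p = 0.177). Of 5 erythroid precursor genes 2 were higher, the hemoglobin genes *Hba-a1* (1.53) and *Hbb-bt* (1.92), and 0 lower. *Tfrc* of the same list was at 69.1, 54.4 and 96.8 FPKM, below each vehicle tumor (111, 122 and 99.2), and did not pass. The summed level of the 5 was 102 to 140 FPKM with everolimus and 114 to 142 with vehicle. The part of these cells in the results was not tested.

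Both drugs were given at the same dose over the same time, so their tumors were compared with each other. MLN0128 and everolimus differ in that the former binds the active site of mTOR and the latter acts through FKBP12. By the moderated test 0 members were higher with MLN0128 than with everolimus and 3 were lower (*Gins1*, *Cdc6* and *Tipin*), against 3.99% and 5.54% of all tested genes. With plain library totals 8.3% and 2.8% of all tested genes were called, and with TPM 8.72% and 1.36%, with 0 members in either direction. By treat 0 were called, against 0.00695% higher and 0.0347% lower over all tested genes. At an unadjusted p under 0.05, 0 were higher and 12 lower, against 1673 and 2210 of the 14397 tested genes. With voom 0 members were higher and 2 lower, against 4.56% and 6.71% of all tested genes. Of the 42 log2 fold changes 31 were negative, against 7772 of the 14397 over all tested genes. The median was -0.24 over the members and -0.0281 over all tested genes.

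*Gins1* was at 6.29, 6.22 and 10.1 FPKM with MLN0128 and 15, 11.4 and 17.3 with everolimus, without overlap (log2 fold change -0.88, SE 0.22, adjusted p = 0.0335). *Cdc6* was at 1.49, 0.933 and 1.6 FPKM with MLN0128 and 2.1, 2.12 and 3.61 with everolimus (log2 fold change -0.61, SE 0.16, adjusted p = 0.0391). *Tipin* was at 12.5, 10.4 and 11 FPKM with MLN0128 and 16.3, 13.6 and 19.9 with everolimus (log2 fold change -0.51, SE 0.14, adjusted p = 0.0446). These calls rested on single libraries and on the scaling. The number lower was 0 without MLN0128 replicate 1 or 2 or everolimus replicate 1 or 3 (0.667% to 4.53% of all tested genes). Without normal liver replicate 1 or 2 or vehicle replicate 1 or 3 it was 1 (4.03% to 4.69%). It was 6 without everolimus replicate 2 (6.87%) and 8 without MLN0128 replicate 3 (6.02%). It was 0 with plain library totals, with TPM and with MLN0128 replicate 3 as the only MLN0128 library. *Uhrf1* was at 8.96, 6.46 and 13.4 FPKM with MLN0128 and 14.5, 11.1 and 19.1 with everolimus, overlapped and did not pass (log2 fold change -0.61, SE 0.24, adjusted p = 0.132), though it did without MLN0128 replicate 3 (adjusted p = 0.0352). At the other end *Gins4* was at 17.6, 15.9 and 24.7 FPKM with MLN0128 and 16.1, 16.1 and 13.8 with everolimus (log2 fold change 0.30, SE 0.15, adjusted p = 0.226). For *Pold1*, the member with the largest fold change against vehicle with either drug, the difference between the drugs was 0.08 (95% confidence interval -0.36 to 0.53). The intervals were -0.14 to 0.48 for *Pola1* and -0.21 to 0.49 for *Timeless*. The ratio of *Cdt1* to *Gmnn* was 1.23, 1.39 and 1.62 with everolimus and overlapped that with MLN0128 (exact two-sided permutation test, p = 0.2). Of the 56 further genes 0 were higher and 8 (14.3%) lower with MLN0128 than with everolimus, *Ccne1* (-1.41), *E2f2* (-0.76) and the kinase *Cdc7* (-0.67) among them.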

How the data were processed

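RNA of 12 mice, 3 in each of 4 groups, was measured by RNA-seq. The deposited values are FPKM that the authors made from libraries sequenced by Novogene, with reads counted per Ensembl gene and edgeR's glmTreat used for their own calls. The submitters' processing notes name GRCm38 and FastQC 0.11.7, and the aligner is not given in the sources used here. The FPKM are linear and rounded to 3 significant digits. Multiplied by GENCODE M21 exon length, 98.2% to 98.8% of the low FPKM came out as whole reads, which gave 17165185 to 25181422 reads per library. For a 2 kb transcript, 3 reads were worth 0.0495 to 0.144 FPKM, counting error only. Beyond total reads, the FPKM carry the authors' scaling factor, 0.585 to 0.596 in normal liver and 1.10 to 1.37 in tumors. The 10 most abundant genes took 19.6% to 22.5% of reads in normal liver and 6.92% to 8.95% in tumors.

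The members, the further lists and the tests were chosen with earlier results of these data known. Genes reaching 0.5 FPKM in 3 or more libraries were kept (14397), and log2(FPKM + 1) was fitted with limma 3.58.1 in R 4.3.3, all 12 libraries in 1 model with 8 residual degrees of freedom and an intensity trend. Calls were made by the moderated test, and by treat for a change beyond 1.5-fold, which stands for the authors' test, both at a Benjamini-Hochberg adjusted p under 0.05 over all tested genes. The scripts were tested on simulated data. Values per library are given for the genes with the largest and smallest change of each role between tumors and normal liver, the 3 members at either end of each drug comparison and those called there; other members are given by range or count, or named after their values were seen. Nothing in the labels says more of the mice than their group, so p-values measure the spread between these samples. Replicate numbers did not pair the libraries. Alternatives covered the pseudocount, filter, scaling, threshold, libraries in the model, prior variance, replicate block, voom on the recovered reads and each library left out. MLN0128 replicate 3 as the only MLN0128 library was added after seeing the data. Of the marker lists, the lists of the lymphocyte (summed level 0.435 to 2.17 FPKM over the 12 libraries), neutrophil (0.27 to 17.1) and fibroblast genes (22.3 to 81.1) are not described further.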

Additional observations from a re-analysis of the deposited data

How the results depend on the processing

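The direction of the tumor against normal liver difference held for the members at large: 37 to 41 were higher by the moderated test and 31 to 40 by treat over the alternatives. Over all tested genes 32.6% to 67% were higher by the moderated test, and 2033 to 7063 genes by treat, both most with TPM. The number of members lower was 1 with TPM, quantile normalization or plain library totals. *Gins4* was lost or reversed there (log2 fold change 0.57 with TPM and 0.30 with plain totals). These scalings moved the median of all tested genes from 0.0584 to 1.00 (TPM) and 0.623 (plain totals), and by their construction move each fold change with it. For MLN0128 against vehicle the number higher was 2 with only the 2 groups in the model and 2 to 4 with 1 library left out, and the number lower was 0 with TPM, plain totals, only the 2 groups or MLN0128 replicate 3 alone, 1 with quantile normalization and 0 to 5 with 1 library left out. In this comparison 9.18% to 15.9% of all tested genes were higher and 11.8% to 18% lower with 1 library left out. Treat against a fold change of 1.2 called 1 member higher, against 679 of the 14397 tested genes. For everolimus against vehicle the number higher was 0 with a pseudocount of 0.1 FPKM and 1 with 0.5 FPKM, no filter or TPM. With 1 library left out it was 0 to 3, and the number lower was 0 to 1. Over all tested genes 0.952% to 4.76% were then higher and 2.77% to 6.83% lower. For MLN0128 against everolimus the number lower was 0 with TPM, plain totals, only the 2 groups or MLN0128 replicate 3 alone, 1 with quantile normalization and 0 to 8 with 1 library left out. Between the 2 drugs 0.667% to 6.87% of all tested genes were lower with 1 library left out. With everolimus against vehicle, *Rpa1* (-0.11) ran from -0.22 to 0.0022 with 1 library left out, turning without everolimus replicate 2. *Dscc1* (-0.08) ran from -0.16 to 0.0024, turning without vehicle replicate 1. The cause was not tested. Depth limits *Orc1*, *Cdc6*, *Clspn*, *Fen1* and *Dscc1* in normal liver, which had 0 to 6 reads per library.

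With the replicate block the number higher with everolimus was 1 and the number lower with MLN0128 than with everolimus was 0. Over all tested genes the block called 2.24% and 3.06% there. Same-numbered libraries of different groups did not deviate together (r from -0.29 to 0.15), so the numbers do not pair the mice. The block left each of the other counts within 1.5 times its value.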
